A study of Mus musculus with 4 samples.

Results

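Aquaporins are membrane channels that let water, and in some members glycerol or hydrogen peroxide, cross a cell membrane along its gradient. The protein has a pair of short boxes, Asn-Pro-Ala in most members, that meet in the middle of the pore. In the lung the family is divided by cell type: Aqp5 is known from the apical membrane of alveolar type 1 cells and of airway secretory cells, Aqp4 from the basolateral membrane of columnar airway cells, Aqp3, which also carries glycerol, from airway basal cells, and Aqp1 from capillary endothelium. Aqp11 is an unusual member that is found inside the cell, at the endoplasmic reticulum. The genes described here are these 5, taken by symbol from the 25124 genes listed in the deposited table, which lists 12 aquaporin symbols in all.

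The transcripts were measured by RNA sequencing of airway epithelial cells sorted by flow cytometry from lungs of wild-type C57BL/6 mice. All mice had received house dust mite (HDM), an allergen extract that provokes allergic airway inflammation. A group of 2 samples came from mice given DMSO, the vehicle, and a group of 2 from mice given an inhibitor of SCD1, stearoyl-CoA desaturase 1, which makes monounsaturated fatty acids. Mice without HDM were not analysed here. The labels used here give no age, sex, dose, time or compound name, and do not say whether a sample is 1 mouse or a pool, so the p-values measure only the spread between these samples, which may be technical. The design asks which transcripts differ between inhibitor and vehicle in mice given HDM.

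The libraries held 24591122 to 27013663 reads assigned to genes. Values are normalised reads, that is, each gene's reads over the size factor of its library. All 8 general epithelial markers looked up, among them Epcam and Cdh1, were detected, with summed levels of 122840 and 126494 normalised reads under DMSO and 118392 and 124578 with the inhibitor. Red blood cell transcripts, a possible other source of Aqp1, summed to at most 18.2 normalised reads in a library over 7 genes, and Hbb-bs and Slc4a1 among them were at 0 in all 4.

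The coding sequence around the boxes differs between some of these channels. Below are the stretches of the GENCODE M21 coding transcripts (build GRCm38, which is mm10) over the first box, with the 3 box codons in capitals. Aqp4 is described by its values only.
Aqp5: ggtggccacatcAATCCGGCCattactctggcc
Aqp3: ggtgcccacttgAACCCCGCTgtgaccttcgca
Aqp1: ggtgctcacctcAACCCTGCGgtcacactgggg
Aqp11: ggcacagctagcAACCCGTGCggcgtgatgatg

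The first box was codons 69 to 71 in Aqp5 (exon 1, chr15:99591464-99591496, plus strand) and codons 76 to 78 in Aqp1 (exon 1, chr6:55336704-55336736, plus strand). In Aqp3 it was codons 83 to 85, read across the junction of exon 2 and exon 3 (chr4:41094807-41094838 in exon 3, minus strand, with the first base printed at 41095145 in exon 2). In Aqp11 it was codons 99 to 101 (exon 1, chr7:97737673-97737705, minus strand). The third codon of the Aqp11 box encodes cysteine in place of alanine, the feature by which this member is known.

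The second box is shown for the same genes, with more of the sequence after it, because the second codon behind the capitals, aspartate in the classical glycerol channels, differs between members.
Aqp5: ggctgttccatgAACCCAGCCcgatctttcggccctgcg
Aqp3: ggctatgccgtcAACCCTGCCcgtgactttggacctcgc
Aqp1: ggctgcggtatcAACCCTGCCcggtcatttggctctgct
Aqp11: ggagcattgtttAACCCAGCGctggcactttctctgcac

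These lie at codons 185 to 187 of Aqp5 (chr15:99593258-99593296, exon 3), 215 to 217 of Aqp3 (chr4:41093823-41093861, exon 5), 192 to 194 of Aqp1 (chr6:55345825-55345863, exon 3) and 216 to 218 of Aqp11 (chr7:97729035-97729073, exon 2), on the strands given above. That codon reads gac, for aspartate, in Aqp3, and tct and tca, for serine, in Aqp5 and Aqp1. Between any 2 of the 5 genes the aligned coding sequences were 63.4% to 66.6% identical, and the longest run of identical bases shared by their transcripts was 10 to 20 bases. No exon of another annotated gene overlapped an exon of the 5.

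Aqp5 fell with the inhibitor, and it was the most abundant of the 5 per length in each of the 4 libraries. It had 2387 and 2029.6 normalised reads in the DMSO libraries and 1171 and 1243 in the inhibitor libraries. Both inhibitor libraries lay below both DMSO libraries, and the gap between the groups was wider than the difference within either pair. Aqp3 had the lowest log2 fold change of the 5 and did not pass the test, and its inhibitor libraries differed from each other more than its DMSO libraries did. Aqp4 was nearly level across the 4 libraries, Aqp1 varied more within the groups than between them, and Aqp11 was scarce.

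**Figure D1:**
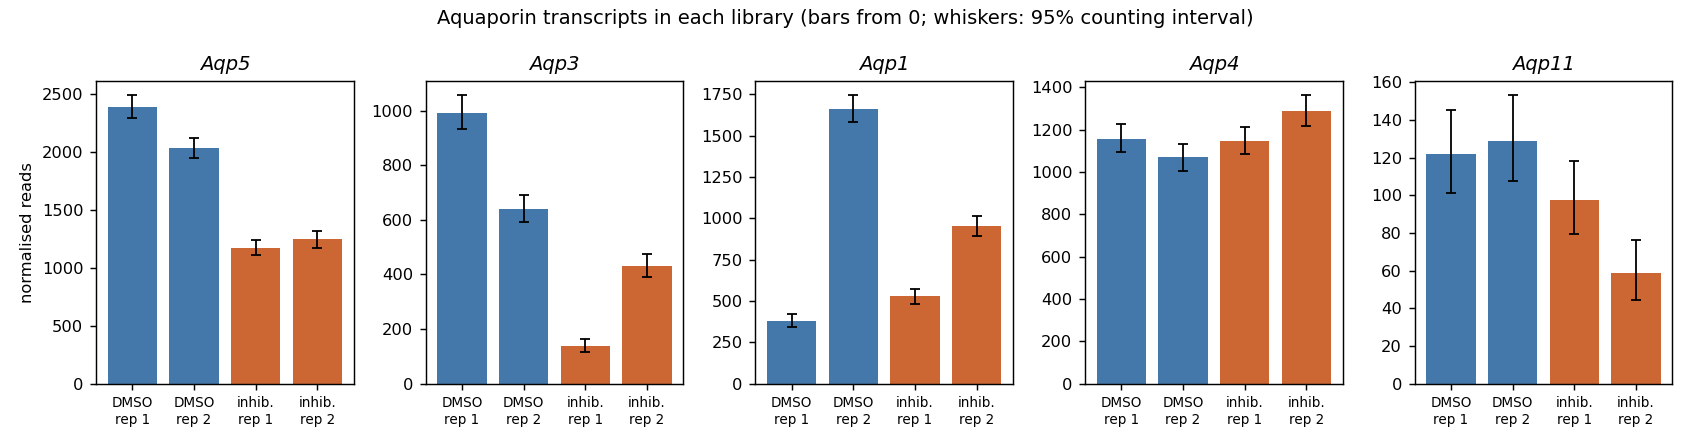
Normalised reads of each aquaporin (vertical axis, own scale per panel) in the 2 DMSO libraries (blue bars) and the 2 inhibitor libraries (orange bars), with whiskers for the 95% counting interval of each library. Aqp5 runs from 1171 to 2387 with both inhibitor libraries lowest, while the Aqp1 bar of DMSO replicate 2, at 1661, stands above the other 3.

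Of the 5 aquaporins tested with limma, 1 was lower with the inhibitor at a Benjamini-Hochberg adjusted p under 0.05 and none was higher, where 1.79% of the 13810 genes tested passed in either direction, 0.427% as lower and 1.36% as higher. At an unadjusted p under 0.05, 2 of the 5 passed, Aqp3 and Aqp5, against 14.1% of all genes tested. In 3 members, Aqp3, Aqp5 and Aqp11, both inhibitor values lay below both DMSO values, against 22.2% of all genes tested (44.9% did not overlap in either direction). With 5 genes, chosen with earlier results of these data known, these counts are a description. An exact two-sided permutation test of 2 samples against 2 cannot give a p below 0.333, so single genes were read from the fit across all genes. Fold changes were taken after adding 25.8 to each value before the log2, which is the level of 1 CPM, a read count scaled to library size.

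Aqp5, the water channel of alveolar type 1 and secretory cells (chromosome 15, 99590782 to 99594829, plus strand), fell 1.81-fold. Its mean was 2208 ± 253 normalised reads under DMSO and 1207 ± 51.3 under the inhibitor (SD, n = 2 each). The log2 fold change was -0.85 ± 0.16 (SE), with a 95% interval of -1.20 to -0.51 (limma, adjusted p = 0.0203). With 1185 to 2449 reads behind each value, the counting error of a library was 2.02% to 2.90%, and this covers counting error only, since PCR copies are not independent molecules. Its replicates lay close together, 1.18-fold apart with DMSO and 1.06-fold with the inhibitor, where the median over all genes tested was 1.20-fold and 1.15-fold.

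The Aqp5 call did not hold in every alternative, while its log2 fold change stayed between -0.97 and -0.74 in the 15 alternatives run. The call ended in limma without the floor on low genes (adjusted p = 0.0539) and without the intensity trend (0.453), and with edgeR's quasi-likelihood test (0.0963). It also ended when SCD1 inhibitor replicate 1 (log2 fold change -0.81) or replicate 2 (-0.90) was left out. In each of these settings fewer genes were called over all genes than in the main test, as given at the end.

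Cell type markers moved beside Aqp5 in part. The 10 alveolar type 1 markers, a source of Aqp5, had summed levels of 33391 and 36637 normalised reads under DMSO and 31789.6 and 33236 with the inhibitor. Of the 9 that were tested, 7 had a negative log2 fold change, the list median was -0.11, and none passed limma's test (1 at an unadjusted p under 0.05, 0 with edgeR and 0 with DESeq2). Ager, the receptor that marks alveolar type 1 cells, had 3255 and 3641 normalised reads under DMSO and 2644 and 2312 with the inhibitor (log2 fold change -0.47 ± 0.14, SE, adjusted p = 0.119). Pdpn, the surface protein podoplanin, had 282 and 220.0 under DMSO and 71.7 and 191 under the inhibitor. Its log2 fold change, -0.92 ± 0.45 (SE), missed the threshold (adjusted p = 0.396). The sum was carried largely by Emp2, the most abundant, which had 10142 and 10616 under DMSO and 9905 and 9687 under the inhibitor, and by Cldn18. The 2 inhibitor sums were the lowest, but the nearest DMSO and inhibitor sums were close, while the DMSO pair itself spread from 33391 to 36637. Goblet cell markers, from the mucus-secreting airway cells, summed to 106489 and 80913 with DMSO and 19157 and 37168 with the inhibitor. All 8 had a negative log2 fold change (list median -1.74), and 6 passed limma's test as lower (1 with edgeR and 4 with DESeq2). Alveolar type 2 markers summed to 415911 and 474992 with DMSO and 329059 and 273772 with the inhibitor. Of the 10, 9 had a negative log2 fold change (list median -0.53). Limma's test was passed by 4, as lower (0 with edgeR and 7 with DESeq2). Club cell markers summed to 672485 and 585270.0 with DMSO and 620502 and 403143 with the inhibitor. All 6 had a negative log2 fold change (list median -0.62), and 3 passed limma's test as lower (1 with edgeR and 5 with DESeq2). Over all 13810 genes tested the median was 0.0056, and 0.427% passed limma's test as lower. An unadjusted p under 0.05 in limma, in either direction, was found for 14.1%. The numbers of all genes called with edgeR and DESeq2 are given at the end. In sorted bulk samples, fewer cells of a type and less RNA per cell cannot be told apart, and the part of these cell types in the Aqp5 value was not tested.

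Aqp3, the glycerol and water channel of basal cells (chromosome 4, 41092722 to 41098183, minus strand), had 992 and 640.2 normalised reads under DMSO and 139.5 and 430.1 with the inhibitor. The groups did not overlap, and SCD1 inhibitor replicate 1 was the lowest of the 4. The means were 816 ± 249 and 285 ± 205 (SD, n = 2 each), and the log2 fold change was -1.58 ± 0.41 (SE), with a 95% interval of -2.47 to -0.70. The limma test was not passed (adjusted p = 0.0752). The inhibitor replicates were 3.08-fold apart, a difference larger than that of 98.6% of all genes tested in that pair. The counting error of the library with the fewest Aqp3 reads, 146, was 8.28%, far below that difference.

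The size of the Aqp3 difference depended on the library. Leaving out SCD1 inhibitor replicate 1 gave a log2 fold change of -0.85 (adjusted p = 0.619), and leaving out SCD1 inhibitor replicate 2 gave -2.32 (0.0935). It passed without DMSO replicate 2 (-1.89, adjusted p = 0.0334) and with DESeq2 (-1.52, adjusted p = 0.0292).

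The summed basal cell markers had the same order of libraries as Aqp3. The 6 markers summed to 4482 and 3314 normalised reads under DMSO and 833 and 2703 with the inhibitor. Of the 5 tested, all had a negative log2 fold change (list median -1.30), and 4 were lowest in SCD1 inhibitor replicate 1. None passed limma's test (0 with edgeR, and Krt5 alone with DESeq2). In limma 3 had an unadjusted p under 0.05, against 14.1% of all genes tested. The most abundant, the keratin gene Krt15, had 2517 and 2162 normalised reads under DMSO and 407 and 1588 with the inhibitor (adjusted p = 0.0921). Krt5, the keratin that defines basal cells, had 1398 and 759 with DMSO and 264 and 609 with the inhibitor (adjusted p = 0.0972). Both had the order of Aqp3, but Trp63, Krt17 and Ngfr did not. Trp63, the transcription factor of basal cells, was highest in SCD1 inhibitor replicate 2, at 219 and 166 under DMSO and 90.8 and 362 under the inhibitor (adjusted p = 0.989).

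The goblet and mesothelial sums also had the library order of Aqp3. Mesothelial markers summed to 1641 and 1142 normalised reads in the DMSO libraries and to 715 and 815 in the inhibitor libraries. Of the 4 tested, Msln, the surface protein mesothelin, alone passed limma's test, as lower, against 0.427% of all genes tested. The other 3 had positive log2 fold changes (list median 0.26, 0 with edgeR and Msln alone with DESeq2). Msln carried most of the DMSO sums, with 1388 and 997, and had 233 and 596 under the inhibitor (limma, adjusted p = 0.0381). Its call ended in limma without the floor (adjusted p = 0.113), with upper-quartile scaling (0.0547) and without the intensity trend (0.458), and with edgeR (0.191). The call also ended when SCD1 inhibitor replicate 1 (log2 fold change -0.95) or DMSO replicate 1 (-1.35) was left out. The part of basal, goblet or mesothelial cells in the Aqp3 value was not tested.

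Aqp1, the water channel of capillary endothelium (chromosome 6, 55336432 to 55348555, plus strand), had 379 and 1661 normalised reads under DMSO and 527 and 951 with the inhibitor. The inhibitor values lay between the DMSO values. The DMSO replicates were 4.38-fold apart, a wider difference than in 99.0% of all genes tested in that pair, and the inhibitor replicates 1.80-fold. The log2 fold change was -0.17 ± 0.48 (SE), with a 95% interval of -1.20 to 0.87 (limma, adjusted p = 0.913), so a change of up to 2.30-fold lower or 1.82-fold higher lay within its error. Without DMSO replicate 1 the value was -1.20 and passed (adjusted p = 0.0129). It turned positive when DMSO replicate 2 was left out (0.86, adjusted p = 0.188), and likewise for SCD1 inhibitor replicate 1 (0.24, adjusted p = 0.957).

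The summed endothelial markers had the same order of libraries as Aqp1. The 10 markers summed to 4540.1 and 14403 normalised reads under DMSO and 5081 and 7171 with the inhibitor, all were tested, and none was at 0 in all libraries. In 9 of the 10 the highest value was in DMSO replicate 2, and in 8 the lowest was in DMSO replicate 1. The most abundant, the clotting factor carrier Vwf, had 1862 and 6509 normalised reads under DMSO and 2058 and 3086 with the inhibitor. No endothelial marker passed limma's test (list median -0.15, 0 with edgeR and 0 with DESeq2). In limma 1 had an unadjusted p under 0.05, against 14.1% of all genes tested. The general epithelial sums stood within 118392 to 126494 in the same libraries. The part of endothelial RNA in the Aqp1 value was not tested.

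**Figure D2:**
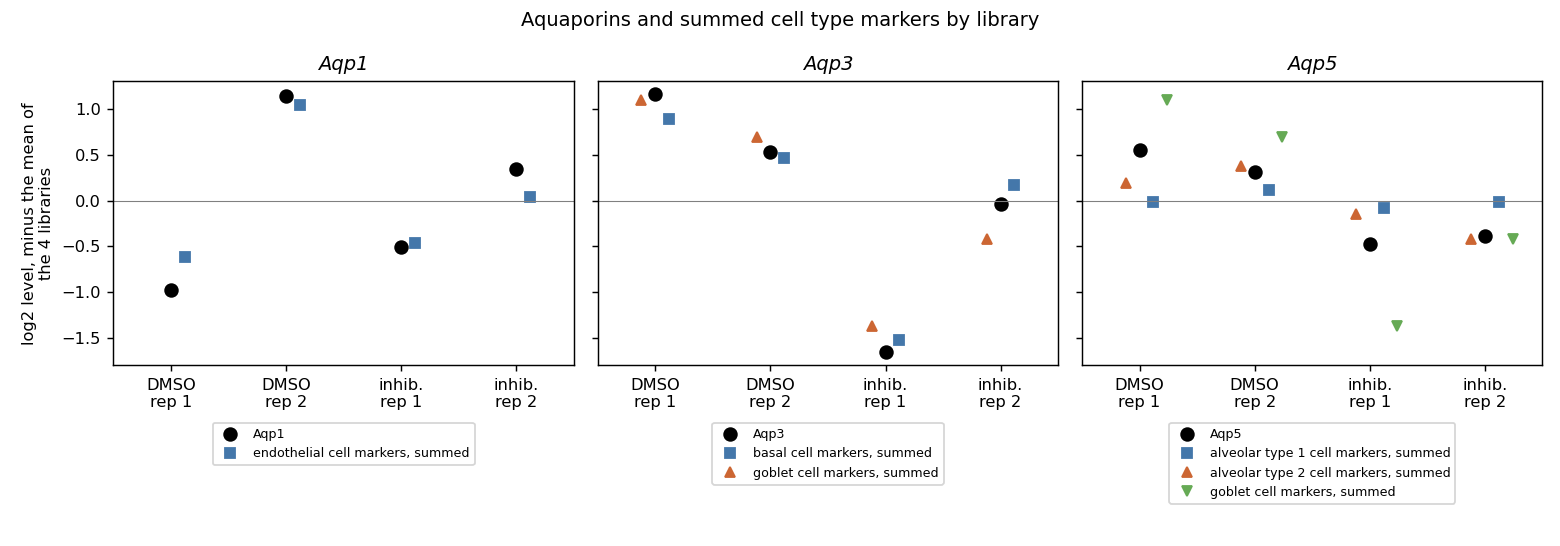
Level of Aqp1, Aqp3 and Aqp5 (black) and of summed cell type markers (coloured) in each library, as log2 level minus the mean of the 4 libraries. Aqp1 and the endothelial sum are both highest in DMSO replicate 2 (1.15 and 1.04), Aqp3 and the basal sum are both lowest in SCD1 inhibitor replicate 1 (-1.66 and -1.53), and the alveolar type 1 sum, carried largely by Emp2 and Cldn18, stays within -0.085 to 0.12 while Aqp5 runs from -0.48 to 0.55.

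Aqp4, the water channel of the basolateral membrane (chromosome 18, 15389496 to 15410982, minus strand), had 1158 and 1069 normalised reads under DMSO and 1148 and 1288 with the inhibitor. The groups overlapped, and no library stood apart. The log2 fold change was 0.13 ± 0.18 (SE), with a 95% interval of -0.26 to 0.51 (limma, adjusted p = 0.816), which leaves room for a change of up to 1.20-fold lower or 1.43-fold higher. The replicates were 1.08-fold apart with DMSO and 1.12-fold with the inhibitor. Markers of ciliated cells, columnar cells of the airway surface, had sums of 497964 and 502387 with DMSO and 503519 and 521913 with the inhibitor. Of the 8 tested, 6 were positive and 2 negative (list median 0.15). Only Ccdc39, an axoneme assembly gene, passed limma's test, as higher (2.68-fold, adjusted p = 0.00140), against 1.36% of all genes tested. In that test 3 of the 8 had an unadjusted p under 0.05, against 14.1% of all genes tested. Calls among the 8 were 0 with edgeR and 3 with DESeq2. The Ccdc39 call ended in limma without the intensity trend (adjusted p = 0.453) and with edgeR (0.0612). It also ended when SCD1 inhibitor replicate 1 (log2 fold change 1.43) or replicate 2 (1.42) was left out.

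Aqp11, the intracellular member with the altered first box (chromosome 7, 97724006 to 97738289, minus strand), had 122 and 129 normalised reads under DMSO and 97.5 and 58.7 with the inhibitor. The groups did not overlap, and SCD1 inhibitor replicate 2 was the lowest. The log2 fold change was -0.57 ± 0.48 (SE), with a 95% interval of -1.60 to 0.47, and it did not pass (limma, adjusted p = 0.656). These values rest on 56 to 130 reads a library, with counting errors of 8.77% to 13.4%. The inhibitor replicates were 1.66-fold apart, more than the group means (1.60-fold).

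**Figure D3:**
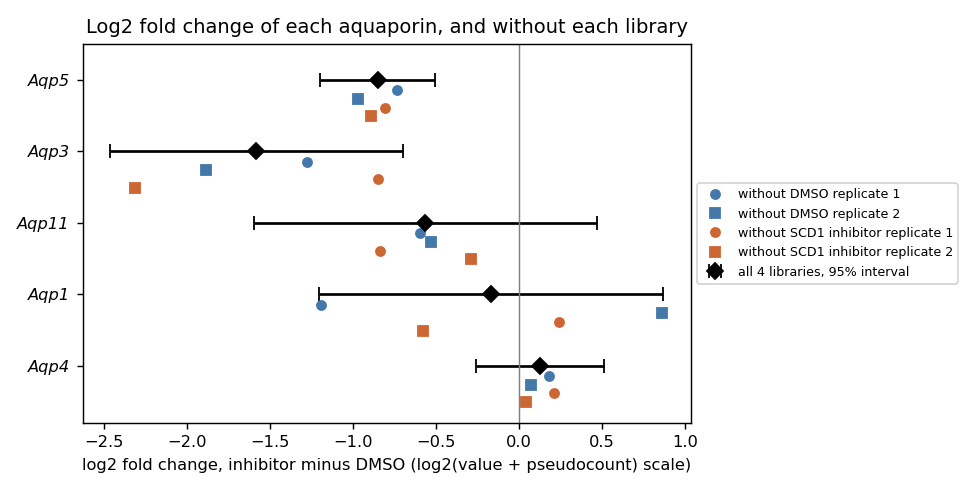
Log2 fold change of each aquaporin, inhibitor minus DMSO, with its 95% interval from limma (black diamonds and bars) and the value without each library in turn (coloured points). The intervals of Aqp5 (-1.20 to -0.51) and Aqp3 (-2.47 to -0.70) lie below 0 before adjustment for the number of genes, and the Aqp1 points fall on both sides of 0.

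Levels of different genes were set side by side per kilobase (kb) of exon, the union of annotated exons. With DMSO the order was Aqp5 at 850 ± 97.2 normalised reads per kb, Aqp3 at 446 ± 136, Aqp1 at 388 ± 345, Aqp4 at 179 ± 10.1 and Aqp11 at 13.3 ± 0.525 (SD, n = 2 each). Aqp5 lay above Aqp3 in both DMSO libraries, and Aqp3, at 542 and 350.03 per kb, lay above Aqp4, at 186 and 172. Aqp1, at 144 per kb in DMSO replicate 1 and 632 in replicate 2, could not be placed against either. With the inhibitor the order was Aqp5 at 464 ± 19.7 per kb, Aqp1 at 281 ± 114, Aqp4 at 195 ± 16.0, Aqp3 at 156 ± 112 and Aqp11 at 8.29 ± 2.91. There the ranges of Aqp1, Aqp4 and Aqp3 overlapped, and these 3 could not be ordered by their spread. Aqp5 ranked first and Aqp11 last in all 4 libraries, also with the length of the longest coding transcript in place of the exon union. Among all genes tested that have an annotated length, the Aqp5 level per kb was higher than that of 83.9%, Aqp1 than that of 69.1%, Aqp3 than that of 66.2%, Aqp4 than that of 52.5% and Aqp11 than that of 4.79%.

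The summed aquaporin level per kb was lower with the inhibitor in both libraries. It was 1804 and 1948 normalised reads per kb with DMSO and 922 and 1289 with the inhibitor. Aqp5 gave 50.9% and 40.1% of that sum with DMSO and 48.9% and 37.1% with the inhibitor, so its share overlapped between the groups although its level did not. The Aqp4 share was 10.3% and 8.80% with DMSO and 19.97% and 16.0% with the inhibitor, at nearly constant Aqp4 levels. Within a library, the ratio of Aqp5 to Aqp4 per kb was 4.94 and 4.55 with DMSO and 2.45 and 2.31 with the inhibitor. The ratio of Aqp3 to Aqp4 was 2.92 and 2.04 with DMSO and 0.414 and 1.14 with the inhibitor. Neither ratio overlapped between the groups. The ratio of Aqp3 to Aqp5 did, at 0.591 and 0.448 with DMSO and 0.169 and 0.492 with the inhibitor.

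**Figure D4:**
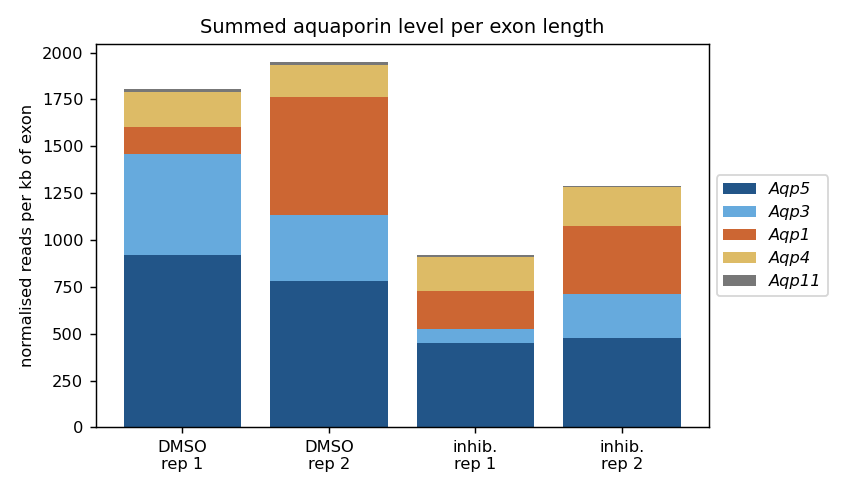
Level of the 5 aquaporins in each library as stacked normalised reads per kb of exon, from 0. The total falls from 1804 and 1948 in the DMSO libraries to 922 and 1289 in the inhibitor libraries, with Aqp5 the widest band in each.

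The other 7 aquaporin genes were absent or scarce. Mip, Aqp6, Aqp8, Aqp9 and Aqp12 were at 0 in all 4 libraries, where a count of 0 allows up to 3 reads, or 2.87 to 3.15 normalised reads. Aqp7, a glycerol channel known from fat cells, had 30.7 normalised reads in DMSO replicate 2, 17.2 in SCD1 inhibitor replicate 1 and 0 in the other 2. Aqp2, the vasopressin-regulated channel of the kidney collecting duct and a neighbour of Aqp5 on chromosome 15, had 40.0 and 8.92 with DMSO and 37.3 and 35.7 with the inhibitor (limma, adjusted p = 0.854).

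Genes that set up the salt gradients water follows were looked up as a list of 21 ion channels, transporters and their regulators. All 21 were tested and none passed limma's test (0 with edgeR, and Scnn1b with DESeq2). In limma 5 had an unadjusted p under 0.05, against 14.1% of all genes tested. Among the 21 genes, 16 were negative, with a list median of -0.18. In 9 both inhibitor values lay below both DMSO values, against 22.2% of all genes tested. Both lay above in Cftr (log2 fold change 0.30), Slc26a4 (0.38) and Clcn2 (0.41). In either direction, 12 of the 21 did not overlap, against 44.9% of all genes tested. The smallest p-values were those of Scnn1b, Ano1 and Scnn1g. Scnn1b, a subunit of the epithelial sodium channel that draws salt and water out of the airway lumen, had 1709 and 1377 normalised reads under DMSO and 1057 and 677 with the inhibitor (log2 fold change -0.84 ± 0.22, SE, adjusted p = 0.0835). Scnn1g, another subunit of that channel, had 609 and 379.6 with DMSO and 328 and 185 with the inhibitor (adjusted p = 0.278). The calcium-activated chloride channel gene Ano1, whose protein secretes chloride into the lumen, had 1945 and 1606 with DMSO and 1562 and 758 with the inhibitor (adjusted p = 0.256). In these 3, picked for their small p-values, the groups did not overlap, as was so for 44.9% of all genes tested.

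The cell volume and osmotic response list held 16 genes, all tested. None passed limma's test (0 with edgeR and 0 with DESeq2), 9 were negative and the list median was -0.056. In limma 3 had an unadjusted p under 0.05, against 14.1% of all genes tested. Nfat5, the transcription factor of the response to high salt, had 3003 and 1779.9 normalised reads under DMSO and 3501 and 3219 with the inhibitor (log2 fold change 0.53 ± 0.20, SE, adjusted p = 0.232). The log2 fold change was 0.40 for Slc5a3, which imports the osmolyte inositol (adjusted p = 0.352).

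Aqp3 also carries glycerol, and the list of genes that make or use glycerol held 10, all tested. None passed limma's test (0 with edgeR and 0 with DESeq2), 8 were negative and the list median was -0.11. In limma 1 had an unadjusted p under 0.05, against 14.1% of all genes tested. Glycerol kinase, Gk, which traps glycerol in the cell as glycerol 3-phosphate, had 583 and 456 normalised reads under DMSO and 775 and 721 with the inhibitor (log2 fold change 0.51 ± 0.24, SE, adjusted p = 0.364). Mgll, the lipase that frees glycerol from monoacylglycerol, had 285 and 384 with DMSO and 161 and 235 with the inhibitor (-0.69 ± 0.36, adjusted p = 0.423). Gpam, which adds the first acyl chain to glycerol 3-phosphate, had -0.35 (adjusted p = 0.354).

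Hydrogen peroxide, which Aqp3 and Aqp11 can carry, has its makers and removers on a list of 15 genes, of which 10 were tested. None passed limma's test (0 with edgeR, and Prdx6 with DESeq2), 8 were negative and the list median was -0.15. In limma 3 had an unadjusted p under 0.05, against 14.1% of all genes tested. The oxidases Duox1 and Nox4 lay under the floor for testing, and Duox2 and its maturation factor Duoxa2 were at 0 in all 4 libraries. Prdx6, a peroxide-removing enzyme also known for its role in surfactant turnover, had 14604 and 15217 normalised reads under DMSO and 11707 and 10124 with the inhibitor (log2 fold change -0.45 ± 0.11, SE, adjusted p = 0.0594). Catalase, Cat, had -0.26 (adjusted p = 0.311) and Prdx2 -0.38 (adjusted p = 0.344).

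For each aquaporin the 3 genes of most similar profile were taken among all genes tested, by Euclidean distance between log2 profiles over the 4 libraries, each centred on its own mean. For Aqp5 they were Npbwr1, Hspa1b and Josd1, at distances of 0.078, 0.105 and 0.113. Hspa1b had 1358 and 1173 normalised reads under DMSO and 624 and 652 with the inhibitor, and its reads can be shared with its near-identical copy Hspa1a. For Aqp3 they were Msln, Bpifb1 and Fer1l6, at 0.175, 0.317 and 0.376. Those of Aqp1 were Sox17, Lhfp and Arhgef15, at 0.075, 0.086 and 0.095. Those of Aqp4 were Ddhd2, Mgat4a and B3galnt2, at 0.014, 0.021 and 0.021, and those of Aqp11 Gm29776, Nup85 and Sectm1b, at 0.054, 0.055 and 0.058. Over 4 libraries, many unrelated genes can share a profile.

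Markers of the remaining cell types gave the following levels. Leukocyte markers summed to 2971 and 3775 normalised reads under DMSO and 3879 and 2143 with the inhibitor. These sums were carried largely by Lcp1, at 2325 and 2691 under DMSO and 2839 and 1473 with the inhibitor. The pan-leukocyte genes Coro1a (limma, adjusted p = 0.529) and Lcp1 (adjusted p = 0.637) did not pass. Fibroblast markers summed to 889.9 and 2155 with DMSO and 2489 and 2516 with the inhibitor. All 5 tested, the collagen genes Col1a1 and Col3a1 among them, were positive without passing (0 with edgeR and 0 with DESeq2). In limma 2 had an unadjusted p under 0.05, against 14.1% of all genes tested. The mesothelial marker of the next smallest p-value after Msln, Upk3b, had 61.4 and 26.8 with DMSO and 176 and 40.9 with the inhibitor.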

How the data were processed

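RNA of 4 samples of sorted mouse airway epithelial cells, 2 per group, was sequenced by the authors from libraries made with a directional kit, per the labels' protocols. HOMER, DESeq2 and build mm10 are named in the submitters' processing notes, without roles or versions. The sources used here do not give the aligner, the filters or the use of strand. The deposited signal values are reads per gene divided by a size factor per library: all values of each library (100%) were multiples of 1 step within 0.01, and the inverse steps (1.03, 1.01, 1.05 and 0.953) equalled the median-of-ratios size factors. The step of DMSO replicate 2 lies within 1% of 1, so its recovered reads are less certain. Recovered reads entered edgeR, DESeq2, counting errors and the total, TMM and upper-quartile scalings.

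Values were tested as log2(value + 25.8) with limma 3.58.1 (intensity trend, prior degrees of freedom 11.2, group as the only term) in R 4.3.3, on the 13810 genes with a mean of at least 25.8. The Benjamini-Hochberg adjustment ran over all of these, with a threshold of 0.05. The fit was tested on simulated data, where limma recovered 52% of 2-fold changes and 99% of 4-fold changes. Every simulated gene had the same relative spread beyond counting error, unlike the genes measured here. Alternatives were other pseudocounts, floors and scalings, the replicate number as a block, no intensity trend, edgeR 4.0.16, DESeq2 1.42.0, and each library left out in turn, where a lone sample is assumed to vary like the other pair. Another gene length was added after seeing the data. Positions, exon lengths and sequences come from GENCODE M21 (GRCm38), in which all 5 aquaporins matched by symbol.

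The aquaporins and all gene lists were chosen with earlier results of these data known. Named genes were the aquaporins, the 3 smallest p-values per pathway list, the most abundant and the 2 smallest p-values per marker list, and the 3 nearest profiles per aquaporin. Some genes that this rule names, and the sequence of Aqp4, are not reported here.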

Additional observations from a re-analysis of the deposited data

How the results depend on the processing

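The direction held in all 15 alternatives for Aqp5, Aqp3 and Aqp4, in all 14 that could be run for Aqp11, whose mean lay under the higher floor, and in 13 of 15 for Aqp1. The Aqp5 call ended, at adjusted p-values given with its result, without the floor (-0.85), without the intensity trend (-0.85) and with edgeR (-0.88). Aqp3 passed with DESeq2 (-1.52, adjusted p = 0.0292; range over its alternatives 0.000122 to 0.619). With a library left out, Aqp5 ran from -0.97 to -0.74, Aqp3 from -2.32 to -0.85, Aqp1 from -1.20 to 0.86 (positive also at 0.24 without SCD1 inhibitor replicate 1), Aqp11 from -0.84 to -0.29 and Aqp4 from 0.043 to 0.21.

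The number of genes called, 247 (188 higher, 59 lower), became 64 without the floor, 0 without the intensity trend (1423 at an unadjusted p under 0.05), 10 with edgeR and 477 with DESeq2. Leaving out a library gave 5 (without SCD1 inhibitor replicate 1) to 795 (without DMSO replicate 1), with 15 without SCD1 inhibitor replicate 2. The cause was not tested. No label says whether same-numbered samples shared more than a number. Their replicate differences correlated at r = 0.073 across genes, which cannot decide this with 2 samples per group. With the replicate number as a block in limma, 674 genes were called (469 higher, 205 lower). Aqp3 passed (-1.58, adjusted p = 0.000122) and Aqp5 kept its call (adjusted p = 0.000123). The block takes a further residual degree of freedom from 4 samples, so these p-values rest largely on the spread of other genes. For Aqp3, replicate 1 was the higher with DMSO and the lower with the inhibitor, a spread that a block does not take up. No scaling moved the median of all genes by more than 0.1. Counting precision was lowest for Aqp11, Aqp2 and Aqp7, at 130 reads or fewer a library.

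Among other named genes, the sign turned for 8. With a library left out, the log2 fold change ran from -1.09 to 0.91 for Arhgef15, from -1.11 to 0.83 for Lhfp, from -1.13 to 0.82 for Sox17 (0.12 with the smallest pseudocount), from -1.36 to 0.43 for Vwf, from -0.75 to 0.18 for Lcp1, from -0.021 to 1.57 for Upk3b, from -0.75 to 0.28 for Scgb1a1 and from -0.079 to 0.84 for Aqp2.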
